A study of Homo sapiens with 24 samples.

Results

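KJ-PYR-9 alone was set against DEX alone in BT549, an established human triple negative breast cancer cell line, to describe what both single treatments have in common and what separates them. The comparison took the 3 libraries whose treatment label is KJ-PYR-9 and the 3 whose label is DEX, which are 6 of the 24 libraries of the series and 6 of the 12 of its inhibitor experiment. KJ-PYR-9 cells received 40 µM of this small molecule, dissolved in DMSO, for 3 h. The labels do not say which compound DEX stands for, nor its dose or time. The other groups of the experiment were KJ-PYR-9+DEX, which received both, and VEH, a vehicle whose content is not named, with 3 libraries each. Cells of every group were labelled wild type and grew in RPMI medium with serum and antibiotics. The titles number the libraries of a group as biological replicates, and nothing says more about separate cultures, so p-values measure the spread between these libraries.

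MYC is a transcription factor of cell growth that binds DNA paired with MAX, and KJ-PYR-9 is a small molecule that interferes with this pairing. Immediate early genes such as FOS, EGR1 and NR4A1 are transcribed soon after growth factor, cAMP or stress signals without the need for newly made protein, and their mRNAs are short-lived. The glucocorticoid receptor, encoded by NR3C1, is a hormone-activated transcription factor, and TSC22D3, FKBP5, ZBTB16, KLF9 and PDK4 are among the genes it is known to raise in many tissues.

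RNA was depleted of ribosomal RNA and sequenced in read pairs, and each deposited value is a normalized read count per gene, from which the whole reads were recovered. Depth was 21.17 to 26.92 M reads in KJ-PYR-9 and 5.582 to 14.53 M in DEX, so the groups did not overlap in depth. Features without a gene symbol, which took no part in the tests, held 26.04% of the reads of DEX 1, against 1.623% and 2.071% in the other DEX libraries and 1.761% to 5.445% in KJ-PYR-9. On the first principal component, which carried 59.8% of the variance, KJ-PYR-9 and DEX lay on opposite sides of VEH, and on the second, with 14.7%, both lay apart from VEH and from KJ-PYR-9+DEX. The mesenchymal markers that define this line were high, with VIM, an intermediate filament protein, at 14181, 14459.9 and 13108 in KJ-PYR-9 and 15518, 15022 and 12756 in DEX. VIM, CD44 and CAV1 overlapped between these groups. FN1, SPARC and AXL were higher in every KJ-PYR-9 library than in any DEX library, with AXL at 6688 to 7087 against 3957 to 4132. ZEB1 went the other way, at 1129 to 1241 in KJ-PYR-9 and 1831 to 2077 in DEX. Of 9 luminal or epithelial markers 7 were in the tables, and their sum was 1592 to 1831 in KJ-PYR-9, 845 to 1001 in DEX and 1157 to 1362 in VEH. Most of it was the growth factor receptor gene ERBB2, at 1074 to 1301 in KJ-PYR-9 and 559 to 658 in DEX, and GATA3, a luminal transcription factor, at 419 to 464 in KJ-PYR-9 and 189 to 304 in DEX. The progesterone receptor gene PGR was at most 4.75 in KJ-PYR-9 and 20.9 in DEX. Of 6 leukocyte markers 3 were in the tables, and their sum was 221 to 268 in KJ-PYR-9, 79.3 to 111 in DEX and 102 to 124 in VEH. Most of that sum was CORO1A, an actin-binding protein, while PTPRC, the pan-leukocyte antigen, stayed at or below 18.3 in every library. The 3 fibroblast markers summed to 94.1 to 159 in KJ-PYR-9 and 140 to 219 in DEX, and the 1 endothelial marker in the tables, VWF, was at most 5.22. In bulk RNA, fewer cells of a type and less RNA per cell cannot be told apart.

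The transcriptomes of the KJ-PYR-9 and DEX libraries differed widely. Of 13616 genes tested 9375 differed (68.9%), of which 4908 were higher in KJ-PYR-9 (36%) and 4467 lower (32.8%), with limma at an adjusted p under 0.05, and 2371 and 2237 of them differed at least 2-fold. The median difference over all genes, KJ-PYR-9 minus DEX, was 0.066 on the log2 scale. Against VEH, 5835 genes (42.9%) were called in KJ-PYR-9, with 3455 higher (25.4%) and 2380 lower (17.5%). In DEX 2386 were called (17.5%), with 1294 higher (9.5%) and 1092 lower (8.02%). Both sets of differences from VEH use the same 3 VEH libraries. With other scalings the split of the KJ-PYR-9 calls against VEH was 2939 higher and 3057 lower (TMM) and 2832 and 3120 (quantile), and that of the DEX calls 1237 and 1845 (quantile). With the replicate number as a block the DEX count was 5925 (43.5%), and without DEX 1 it was 848, without DEX 2 1180 and without DEX 3 3604. It was 1325 without VEH 1, 1053 without VEH 2 and 960 without VEH 3, and the KJ-PYR-9 count was 3385 without KJ-PYR-9 3 and 3487 without VEH 1.

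Much of the difference between KJ-PYR-9 and DEX ran with the GC content of the transcript. In the quartile of genes with the lowest GC content (30.2% to 42.1%) the median difference was -1.06 and 84.8% of 3322 genes were called lower in KJ-PYR-9, while in the highest quartile (56.6% to 83.9%) the median was 1.08 and 86.3% were called higher. The median GC content was 58.0% for genes higher in KJ-PYR-9, 40.7% for genes lower and 48.4% for all genes tested. Both groups moved away from VEH: the highest quartile lay above the VEH mean by a median of 0.61, 0.68 and 0.79 in the 3 KJ-PYR-9 libraries, and its medians in the 3 DEX libraries were -0.62, -0.33 and -0.16. After smooth trends of GC content and length had been taken out of every library, 3347 of 13288 genes (25.2%) differed between KJ-PYR-9 and DEX, 1763 higher and 1584 lower. The same count was 1981 without DEX 1. What makes levels follow GC content here was not tested, and differences between KJ-PYR-9 and DEX after this removal are given below where it ends a call or moves a value more than 1.5 times.

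**Figure D1:**
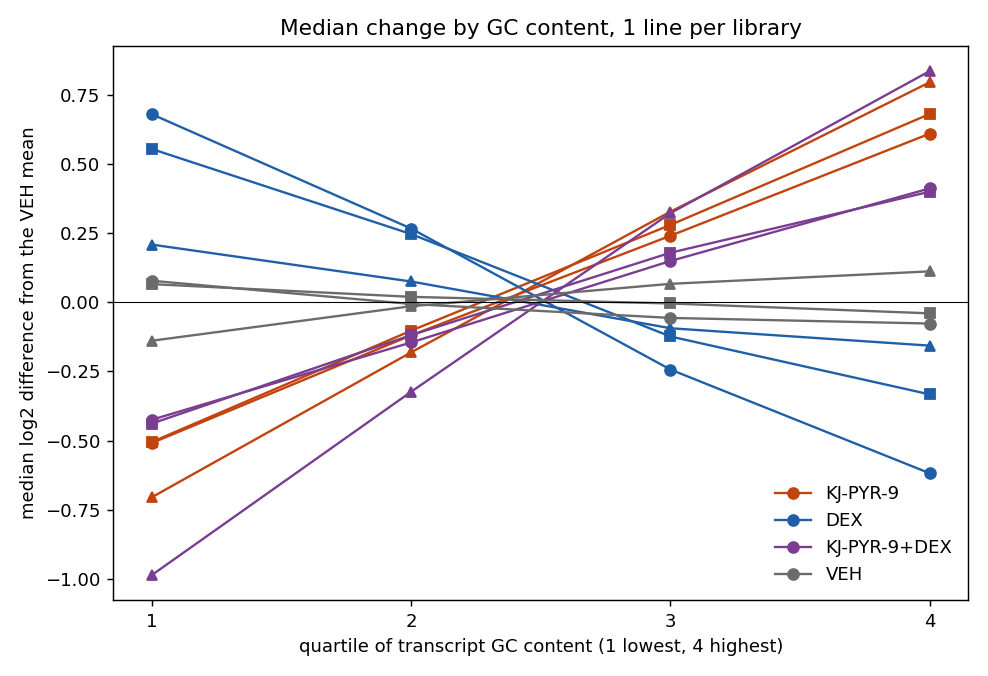
Median log2 difference from the mean of the VEH libraries (vertical axis) over genes in each quartile of transcript GC content (horizontal axis, lowest to highest), 1 line per library, with circles, squares and triangles for replicates 1, 2 and 3. The KJ-PYR-9 lines climb to between 0.61 and 0.79 in the highest quartile, and the DEX lines fall to between -0.62 and -0.16.

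DEX was separated from KJ-PYR-9 by a group of glucocorticoid-responsive genes, most of them higher in DEX. Of 30 such genes 28 were tested, 18 were lower in KJ-PYR-9 than in DEX, 1 was higher (GADD45B, a stress-induced growth arrest protein, at 0.83, and -0.098 once GC content and length trends were removed) and 9 did not pass, against 32.8% lower and 36% higher over all genes. The median difference of the list was -1.29, against 0.066 over all genes. Once GC content and length trends were removed, 22 were lower and 0 higher, with a median of -1.33, where 11.9% of all genes were lower. Without DEX 1 the count was 16 lower and 1 higher. Against VEH, 24 of the 28 were higher in DEX (background 9.5%) and 17 in KJ-PYR-9 (background 25.4%).

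PDK4, the kinase that shuts down pyruvate dehydrogenase (GRCh38 chromosome 7, 95583499 to 95596516), had normalized read counts of 27.6, 40.4 and 47.0 in KJ-PYR-9, 1797, 1195 and 992 in DEX and 7.95, 3.05 and 10.9 in VEH. Every DEX library lay above every KJ-PYR-9 library and every KJ-PYR-9 library above every VEH library, and the log2 difference of KJ-PYR-9 from DEX was -5.07 (SE 0.37, limma adjusted p = 5.37e-05). TSC22D3, the leucine zipper protein GILZ that restrains inflammatory transcription factors (GRCh38 chromosome X, 107713221 to 107775988), read 38.9, 22.6 and 37.3 in KJ-PYR-9 and 909, 552 and 413 in DEX, with a difference of -4.17 (SE 0.40, limma adjusted p = 0.000157). Its VEH values of 32.5, 12.6 and 39.1 overlapped those of KJ-PYR-9, which differed from VEH by 0.33 (SE 0.40, limma adjusted p = 0.513). ZBTB16, a zinc finger repressor, was close to 1 in KJ-PYR-9, at 1.25, 1.19 and 1.62, and read 30.5, 18.2 and 16.7 in DEX, a difference of -3.23 (SE 0.32, limma adjusted p = 0.000178) at a low level. FKBP5, a co-chaperone that dampens the receptor's response, read 10.0, 4.16 and 5.67 in KJ-PYR-9 and 48.8, 31.0 and 44.9 in DEX (-2.53, SE 0.35, limma adjusted p = 0.000248). SLC19A2, the thiamine transporter, read 131, 112 and 105 in KJ-PYR-9 and 1931, 1508 and 1148 in DEX, and differed by -3.68 (SE 0.20, limma adjusted p = 9.61e-06). KLF9, a zinc finger factor, read 398, 432 and 368 in KJ-PYR-9 and 2367, 2002 and 1625 in DEX, and differed by -2.31 (SE 0.17, limma adjusted p = 5.37e-05). All 6 genes were called with no overlap between KJ-PYR-9 and DEX, which held for 67.6% of all genes tested. Being called without overlap was a condition for naming PDK4, TSC22D3 and SLC19A2, and a call was one for ZBTB16, so this adds nothing to their values. With a pseudocount of 5 in place of 1 the difference of ZBTB16 was -2.04. SGK1, a kinase of salt and ion transport, was high in both, at 4926, 4552 and 4335 in KJ-PYR-9, 17971, 15486 and 12035 in DEX and 962, 491 and 758 in VEH, with a log2 difference of KJ-PYR-9 from DEX of -1.70 (SE 0.23, limma adjusted p = 0.000248) and -0.93 after trend removal. The receptor gene NR3C1 read 1954, 1842 and 1653 in KJ-PYR-9 and 4655, 4332 and 3151 in DEX (-1.14, SE 0.24, limma adjusted p = 0.00178), and after trend removal its difference was -0.14 with an adjusted p of 0.445. FKBP5, KLF9, SGK1 and NR3C1 were chosen for the text after their values were seen.

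The promoters of the 2 genes with the largest difference are shown because glucocorticoid-responsive genes can be regulated from sites near or far from the start. Each line gives the 250 bases upstream of the annotated start from RefSeq on GRCh38.p14, 5′ to 3′ on the gene's strand, with capitals for the motifs AGAACA, the core bound by 1 receptor molecule, and TGACG, the core of the cAMP response element, on either strand. The PDK4 window is chr7:95596517-95596766, minus strand, and the TSC22D3 window is chrX:107775989-107776238, minus strand.
PDK4: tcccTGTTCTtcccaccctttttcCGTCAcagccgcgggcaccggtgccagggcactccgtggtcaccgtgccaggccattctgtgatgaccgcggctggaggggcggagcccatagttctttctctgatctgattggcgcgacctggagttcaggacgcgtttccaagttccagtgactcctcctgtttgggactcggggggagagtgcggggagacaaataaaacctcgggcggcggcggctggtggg
TSC22D3: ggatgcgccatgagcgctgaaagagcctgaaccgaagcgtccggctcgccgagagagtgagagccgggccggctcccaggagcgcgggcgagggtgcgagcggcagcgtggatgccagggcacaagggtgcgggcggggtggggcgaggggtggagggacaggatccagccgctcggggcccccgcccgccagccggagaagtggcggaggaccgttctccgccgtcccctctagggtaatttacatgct
The PDK4 window held 1 AGAACA on the opposite strand and 1 TGACG, and the TSC22D3 window held neither. The full palindrome, AGAACA and TGTTCT with 3 bases between them, was in 0 of the 25 promoters of the list that the table holds and in 1 of all 27305 promoters, and AGAACA was in 1 of 25 (4%) in 7.15% of the 10464 promoters of tested genes and in 12.4% of all. These matches say nothing of binding, here or elsewhere around the genes.

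**Figure D2:**
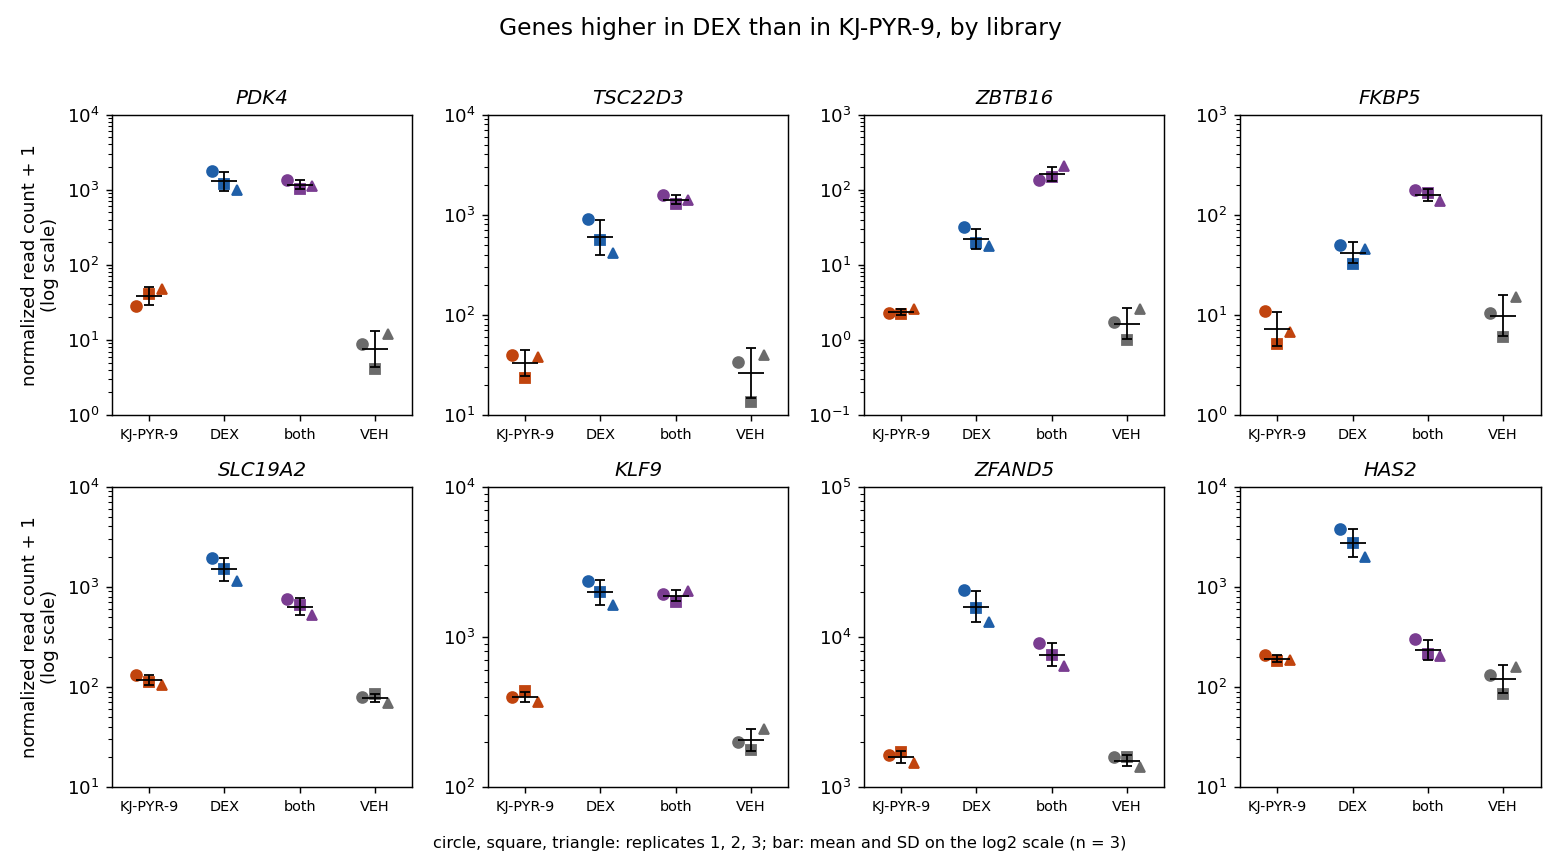
Normalized read count + 1 (vertical axis, log scale) of 8 genes higher in DEX than in KJ-PYR-9, by library, with the mean and SD on the log2 scale (n = 3); "both" stands for KJ-PYR-9+DEX. KJ-PYR-9 lies near VEH for TSC22D3, ZBTB16, FKBP5 and ZFAND5, and KJ-PYR-9+DEX lies near or above DEX for PDK4, TSC22D3, ZBTB16, FKBP5 and KLF9.

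In cells that received both treatments these genes kept or exceeded the level of DEX alone in some cases and not in others. PDK4 read 1349.9, 1029 and 1112 in KJ-PYR-9+DEX, within the range of the DEX libraries. TSC22D3 read 1589, 1279 and 1395 and ZBTB16 134, 147 and 204 in KJ-PYR-9+DEX, above every DEX library. FKBP5 read 177, 164 and 136 there, also above every DEX library. SLC19A2, by contrast, read 754, 649.7 and 519 in KJ-PYR-9+DEX, below every DEX and above every KJ-PYR-9 library, and SGK1 read 2210.4, 1908 and 1698, below both single treatments.

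Among the 12 genes lowest in KJ-PYR-9 against DEX, 5 belonged to the glucocorticoid-responsive list and the others did not. Being called without overlap between KJ-PYR-9 and DEX was a condition for naming all 12, so this adds nothing to their values. ZFAND5, a zinc finger protein that activates the proteasome, read 1634, 1709 and 1442 in KJ-PYR-9, 20473, 15616 and 12638 in DEX and 1578, 1586 and 1355 in VEH, and differed between the treatments by -3.32 (SE 0.19, limma adjusted p = 9.61e-06). KJ-PYR-9 and VEH overlapped, while every DEX library stood above both. HAS2, which makes hyaluronan, read 208, 179 and 184 in KJ-PYR-9, 3783, 2706 and 1969.8 in DEX, and 303, 211 and 200.5 with both treatments, with a difference of -3.84 (SE 0.27, limma adjusted p = 5.37e-05) between the single treatments. After trend removal it was -2.58. CAVIN2, a coat protein of caveolae and a member of the list, differed by -3.09 (SE 0.34, limma adjusted p = 0.000181) at 13.1 to 17.8 in KJ-PYR-9 and 112 to 168 in DEX.

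For 6 of the 12, all KJ-PYR-9 libraries lay below all VEH libraries and all DEX libraries above them. TIPARP, a mono-ADP-ribosyltransferase of the same list, read 825, 739 and 578 in KJ-PYR-9, 6891, 5573 and 4055 in DEX and 1475, 2002 and 1208 in VEH, with log2 differences from VEH of -1.11 (SE 0.29, limma adjusted p = 0.0123) in KJ-PYR-9 and 1.82 (SE 0.29, limma adjusted p = 0.00293) in DEX. The call in KJ-PYR-9 was lost without KJ-PYR-9 3 (0.0538) or VEH 2 (0.0516). CXCL5, a neutrophil chemokine, read 137, 157 and 113 in KJ-PYR-9, 1321, 1191 and 942 in DEX and 583, 638 and 588 in VEH. It differed by -3.07 (SE 0.33, limma adjusted p = 0.000181) between the treatments, by -1.90 after trend removal and by -2.15 (SE 0.33, limma adjusted p = 0.00161) between KJ-PYR-9 and VEH. The calcium-binding protein NECAB1 (-3.10, -1.65 after trend removal), the lysophosphatidic acid receptor LPAR6 (-3.08, -2.06), the secretory pathway cargo receptor TMED7 (-3.13, -1.96) and IER3IP1, a protein of the endoplasmic reticulum (-3.29, -2.08), showed the same order, with limma adjusted p of 0.000178 to 0.000345 before the removal. These 4 were lower than VEH in KJ-PYR-9 (log2 -2.22 to -1.71, limma adjusted p of 0.00246 to 0.00743). In DEX, NECAB1 (1.27, limma adjusted p = 0.0229) and LPAR6 (1.37, 0.0313) were higher than VEH, but without DEX 1, DEX 2, VEH 2 or VEH 3 their adjusted p was 0.0675 to 0.117. In the same comparison the differences of IER3IP1, TMED7 and CXCL5 from VEH, 1.08, 1.08 and 0.92, had adjusted p of 0.0954, 0.123 and 0.0761, and of 0.0124, 0.0274 and 0.0221 with the replicate block. After trend removal the differences of CXCL5 and these 4 genes from VEH were -1.48 to -0.96 in KJ-PYR-9, and in DEX those of NECAB1, IER3IP1, TMED7 and CXCL5 were 0.69, 0.61, 0.62 and 0.47.

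FOXO factors, which glucocorticoids and nutrient lack are known to engage, were represented by 17 tested genes of the FOXO and nutrient response. Of these 10 were lower in KJ-PYR-9 than in DEX and 2 higher, against 32.8% and 36% over all genes, with a median of -0.88 (0 higher without DEX 1, DEX 2 or KJ-PYR-9 3, and 1 without KJ-PYR-9 1), and after trend removal 8 were lower and 0 higher with a median of -0.32. TXNIP, which binds thioredoxin and limits glucose uptake, read 57.1, 40.4 and 56.7 in KJ-PYR-9 and 329, 192 and 209 in DEX (-2.20, SE 0.35, limma adjusted p = 0.000403). PNRC1, a nuclear receptor coregulator, read 1761, 1783 and 2354 in KJ-PYR-9 and 7569, 5924 and 5166 in DEX (-1.66, SE 0.22, limma adjusted p = 0.000234), and the stress sensor SESN3 differed by -2.38 (SE 0.34, limma adjusted p = 0.000278) at 4.16 to 6.90 in KJ-PYR-9 and 24.0 to 48.8 in DEX. After trend removal SESN3 was at -1.15, and its call was lost when DEX 1 was also left out. Of 9 tested metallothionein and zinc genes 3 were lower, near the 32.8% of all genes, and 0 higher, with a median of -0.53. MT1X, which binds zinc and copper, read 369, 297 and 533 in KJ-PYR-9 and 1245, 916 and 965 in DEX (-1.41, SE 0.30, limma adjusted p = 0.00181), and MT1M differed by -2.12 (SE 0.43, limma adjusted p = 0.00148), and by -3.23 after trend removal. With the replicate block 5 were lower, and after trend removal 4 of these 9 were lower and 2 higher, and the metallothionein genes are near identical to each other, so their levels are less certain.

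Of 20 tested cytokine and other genes of the NF-kB pathway 8 were lower in KJ-PYR-9 than in DEX and 6 higher, near the 32.8% and 36% of all genes, with a median of -0.36, and after trend removal 4 were lower and 2 higher with a median of 0.063. Without DEX 1 or DEX 2, 7 were lower and 3 higher, and without KJ-PYR-9 3 it was 6 and 3. IL6, the acute phase cytokine, rose in both treatments, at 2001, 1795 and 2308 in KJ-PYR-9, 5177, 4000.3 and 3625 in DEX and 96.9, 42.7 and 203 in VEH, with changes against VEH of 4.40 (SE 0.46, limma adjusted p = 0.000224) in KJ-PYR-9 and 5.46 (SE 0.46, limma adjusted p = 3.85e-05) in DEX. Its difference between KJ-PYR-9 and DEX of -1.06 missed the threshold (limma adjusted p = 0.0573, 95% interval -2.06 to -0.056), passed with the replicate block (0.0261) and was -0.62 after trend removal (0.4). CXCL8, the neutrophil chemokine interleukin 8, read 559, 436 and 717 in KJ-PYR-9 and 1836, 1486 and 1615 in DEX (-1.55, SE 0.38, limma adjusted p = 0.00432), and 0.073 with an adjusted p of 0.937 after trend removal. Its relative CXCL2 read 1978, 1321 and 1548 in KJ-PYR-9 and 5631, 4054 and 3541 in DEX (-1.44, SE 0.35, limma adjusted p = 0.00405, and -1.15 with 0.0544 after trend removal). BIRC3, an inhibitor of apoptosis that also belongs to the glucocorticoid-responsive list, read 41.4, 42.2 and 47.0 in KJ-PYR-9 and 387, 245 and 261 in DEX (-2.72, SE 0.32, limma adjusted p = 0.000198, -1.23 after trend removal). The chemokine CCL20 was near 0 in KJ-PYR-9, at 1.25, 1.78 and 4.05, and read 48.8, 41.0 and 23.0 in DEX (-3.54, SE 0.67, limma adjusted p = 0.000983, and -2.22 with 0.07 after trend removal). The sum of leukocyte markers, most of it CORO1A, was higher in KJ-PYR-9 than in DEX. PTPRC went the other way, at 1.62 to 9.41 in KJ-PYR-9 and 10.4 to 18.3 in DEX, and CD68 overlapped. Of 2 tested genes of a leukocyte list 2 were higher in KJ-PYR-9. After trend removal 0 were called, and 2 were higher when the replicate block was added. IL6 was chosen for the text after its values were seen.

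Histone genes were mostly higher in KJ-PYR-9 than in DEX. Of 38 replication-dependent histone genes 37 were tested, 31 were higher in KJ-PYR-9 than in DEX and 0 lower, with a median difference of 1.34, against 36% higher and 0.066 over all genes. After trend removal 17 were higher and 3 lower, with a median of 0.31, where 13.3% of all genes were higher. Against VEH, 27 were higher in KJ-PYR-9 and 0 lower, where 25.4% of all genes were higher. In DEX 0 were higher and 3 lower, near the 8.02% of all genes that were lower. With the replicate block 13 were lower in DEX, where 19.6% of all genes were. After trend removal the counts against VEH were 16 higher and 1 lower in KJ-PYR-9 and 1 higher and 0 lower in DEX. H4C8, which encodes histone H4 (GRCh38 chromosome 6, 26285126 to 26285534), read 6473, 7794 and 5372 in KJ-PYR-9, 946, 1954 and 1196 in DEX and 1678, 2870.3 and 2426 in VEH, with a difference of 2.31 (SE 0.29, limma adjusted p = 0.000225). H4C5, another copy of the gene, read 6222, 8269 and 5888 in KJ-PYR-9 and 991, 1973 and 1284 in DEX (2.30, SE 0.31, limma adjusted p = 0.000238). H2BU1, a histone H2B gene, read 6989.7, 7750.3 and 8992 in KJ-PYR-9, 1369.7, 1828 and 1747 in DEX and 1159, 1579.8 and 1912 in VEH (2.27, SE 0.29, limma adjusted p = 0.000234). The histone H2A gene H2AW on the same chromosome 1 differed by 2.14 (SE 0.26, limma adjusted p = 0.000205), and by 1.39 after trend removal. For H2BU1 and H2AW the DEX values overlapped VEH, and all KJ-PYR-9 values lay above both, where no overlap with DEX was a condition for naming them. H4C1 differed by 2.25 (SE 0.29, limma adjusted p = 0.00023) and H4C2 by 2.07 (SE 0.32, limma adjusted p = 0.000343). After trend removal these were 0.87 and 1.40, and the call of H4C1 was lost when DEX 1 was also left out.

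Cytosolic ribosomal proteins were higher in KJ-PYR-9 in 27 of 48 genes and lower in 8, with a median of 0.41, and after trend removal in 24 and 4 with a median of 0.28. Over all genes 36% were higher and 32.8% lower. With quantile scaling 18 were higher and 16 lower, and the lower count was 5 without DEX 1, 4 without DEX 2 and 3 without KJ-PYR-9 3. RPS28, a protein of the small subunit (GRCh38 chromosome 19, 8321496 to 8323340), had the largest difference of all named genes on this side, at 8579, 10295 and 10494 in KJ-PYR-9, 1205, 1406 and 1657 in DEX and 1884, 2355 and 3059 in VEH (2.79, SE 0.29, limma adjusted p = 0.000178), and 1.87 after trend removal. RPLP1 of the ribosomal stalk read 15170.4, 16990.0 and 16124 in KJ-PYR-9 and 3478, 5047 and 5343 in DEX (1.82, SE 0.23, limma adjusted p = 0.000217). For RPS28 and RPLP1 every KJ-PYR-9 library lay above every DEX library. Being called without overlap held for 67.6% of all genes tested and was a condition for naming RPS28. A call was one for RPLP1. Both families have near identical copies, and ribosomal proteins many pseudogenes, among which reads may be split.

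The remaining genes among the 12 highest in KJ-PYR-9 had GC-rich transcripts, at 58.2% to 72.0%. BLVRB, which reduces biliverdin and flavins, read 903, 957 and 1240.0 in KJ-PYR-9, 165, 221 and 305 in DEX and 226, 255 and 417 in VEH (2.19, SE 0.36, limma adjusted p = 0.000483, 1.41 after trend removal). SDF2L1, a chaperone partner of the endoplasmic reticulum, read 1631, 1608 and 1888 in KJ-PYR-9 and 272, 386 and 518 in DEX (2.17, SE 0.33, limma adjusted p = 0.000356, 0.87 after trend removal, with the call lost when DEX 1 was also left out). CBARP, which modulates calcium channels, read 477, 419 and 534 in KJ-PYR-9, 85.4, 94.8 and 118 in DEX and 79.5, 69.4 and 98.5 in VEH (2.26, SE 0.23, limma adjusted p = 0.000178, 0.61 after trend removal). D2HGDH, a mitochondrial dehydrogenase, differed by 2.46 (SE 0.63, limma adjusted p = 0.00535) and IQCN by 2.25 (SE 0.64, limma adjusted p = 0.0088). After trend removal their differences were 1.14 and 1.29, with adjusted p of 0.117 and 0.0992, so neither passed. D2HGDH was at 9.15, 63.8 and 77.2 in DEX, lowest in DEX 1, the library of least depth, and without DEX 1 its difference was 1.52 (limma adjusted p = 0.00441).

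Both treatment groups had higher immediate early genes than VEH. The differences of both use the same VEH libraries, so a shift of these libraries would enter both. Whether the treatments themselves or another difference of these groups from VEH underlies the rise was not tested. Of 30 immediate early transcription factors, all tested, 27 were higher than VEH in KJ-PYR-9 (25.4% of all genes were) and 22 in DEX (9.5% of all genes), and 0 were lower in either. Their median difference from VEH was 2.24 in KJ-PYR-9 and 1.31 in DEX. In the direct comparison 20 were higher in KJ-PYR-9 than in DEX and 1 lower, with a median of 0.95, where 36% of all genes were higher and 32.8% lower. After trend removal 7 were higher and 4 lower with a median of 0.23, where 13.3% of all genes were higher and 11.9% lower. Their transcripts had a median GC content of 56.9%, against 48.4% over all genes.

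FOS, a subunit of AP-1 (GRCh38 chromosome 14, 75278828 to 75282230), read 21736, 13909 and 16939.7 in KJ-PYR-9, 6528, 5629 and 5868 in DEX and 104, 64.9 and 153 in VEH. All KJ-PYR-9 values lay above all DEX values, and these above all VEH values, with a log2 difference between the treatments of 1.52 (SE 0.30, limma adjusted p = 0.0013) and 1.12 after trend removal. EGR1, a zinc finger factor of growth signals (GRCh38 chromosome 5, 138465479 to 138469303), read 30809.9, 21391 and 26951 in KJ-PYR-9, 10857, 10815 and 11613 in DEX and 587, 369 and 1002 in VEH. It differed by 1.23 (SE 0.34, limma adjusted p = 0.00773), with 0.69 and an adjusted p of 0.0965 under quantile scaling and of 0.207 after trend removal (0.56). NR4A1, an orphan nuclear receptor, read 10981, 8028 and 9308 in KJ-PYR-9, 3584, 3791 and 4316 in DEX and 108, 86.2 and 181 in VEH (1.27, SE 0.31, limma adjusted p = 0.00393), and after trend removal 0.26 with an adjusted p of 0.556. JUN, the partner of FOS in AP-1, read 29642, 22814 and 21176 in KJ-PYR-9, 8270.2, 9892 and 9038 in DEX and 3597, 3040.4 and 3831 in VEH (1.43, SE 0.19, limma adjusted p = 0.000234, 0.64 after trend removal and 0.95 with quantile scaling). JUNB read 10713, 9460.2 and 10289 in KJ-PYR-9, 2663, 3356 and 3525 in DEX and 1926, 1526 and 1943 in VEH (1.68, SE 0.22, limma adjusted p = 0.000227), and after trend removal 0.46 with an adjusted p of 0.107. IER2, an early nuclear protein, read 5922, 4342 and 4506 in KJ-PYR-9, 915, 1278 and 1217 in DEX and 578, 576 and 817 in VEH (2.11, SE 0.19, limma adjusted p = 0.000146, 1.03 after trend removal). KLF6, a zinc finger factor, went the other way, at 10659, 9461 and 10637 in KJ-PYR-9, 28295, 25662 and 21501 in DEX and 3301, 2639 and 4112 in VEH (-1.29, SE 0.17, limma adjusted p = 0.000236). EGR1, NR4A1 and KLF6 were chosen for the text after their values were seen.

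The promoters of 3 early genes are shown because their windows hold motifs known for signal-driven transcription: TGACG, the core of the cAMP response element, its full form TGACGTCA, the E-box CACGTG, which MYC with MAX can bind, and CCATA followed by TTAGG, a serum response element. Capitals mark these on either strand, windows are as above, and in DUSP1 the E-box overlaps a core and the full element contains a core on each strand. FOS lies at chr14:75278578-75278827, plus strand, EGR1 at chr5:138465229-138465478, plus strand and DUSP1 at chr5:172771196-172771445, minus strand.
FOS: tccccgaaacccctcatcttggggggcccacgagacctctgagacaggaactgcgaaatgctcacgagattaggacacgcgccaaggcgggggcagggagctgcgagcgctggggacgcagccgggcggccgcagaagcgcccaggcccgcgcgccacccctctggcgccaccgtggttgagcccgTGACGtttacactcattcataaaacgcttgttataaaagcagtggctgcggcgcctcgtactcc
EGR1: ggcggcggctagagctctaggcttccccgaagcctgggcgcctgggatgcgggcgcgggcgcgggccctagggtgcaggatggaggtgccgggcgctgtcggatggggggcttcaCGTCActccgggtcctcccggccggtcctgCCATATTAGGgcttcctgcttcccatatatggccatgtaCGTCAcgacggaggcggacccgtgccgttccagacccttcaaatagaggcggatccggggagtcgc
DUSP1: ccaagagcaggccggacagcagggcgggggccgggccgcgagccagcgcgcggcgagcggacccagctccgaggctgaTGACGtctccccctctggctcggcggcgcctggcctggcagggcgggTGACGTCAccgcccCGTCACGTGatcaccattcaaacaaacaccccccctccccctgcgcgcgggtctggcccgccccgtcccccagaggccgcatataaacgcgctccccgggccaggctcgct
TGACG occurred once in FOS, in 2 places in EGR1 and in 4 in DUSP1. Over the immediate early list 14 of the 25 promoters in the table held it (56%), against 30.1% of the 10464 promoters of tested genes and 21.7% of all 27305. The full element was in 2 of the 25 (8%), in 2.93% of promoters of tested genes and in 1.76% of all, and CACGTG in 3 of the 25 (12%), in 8.89% of those of tested genes and in 6.49% of all.

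**Figure D3:**
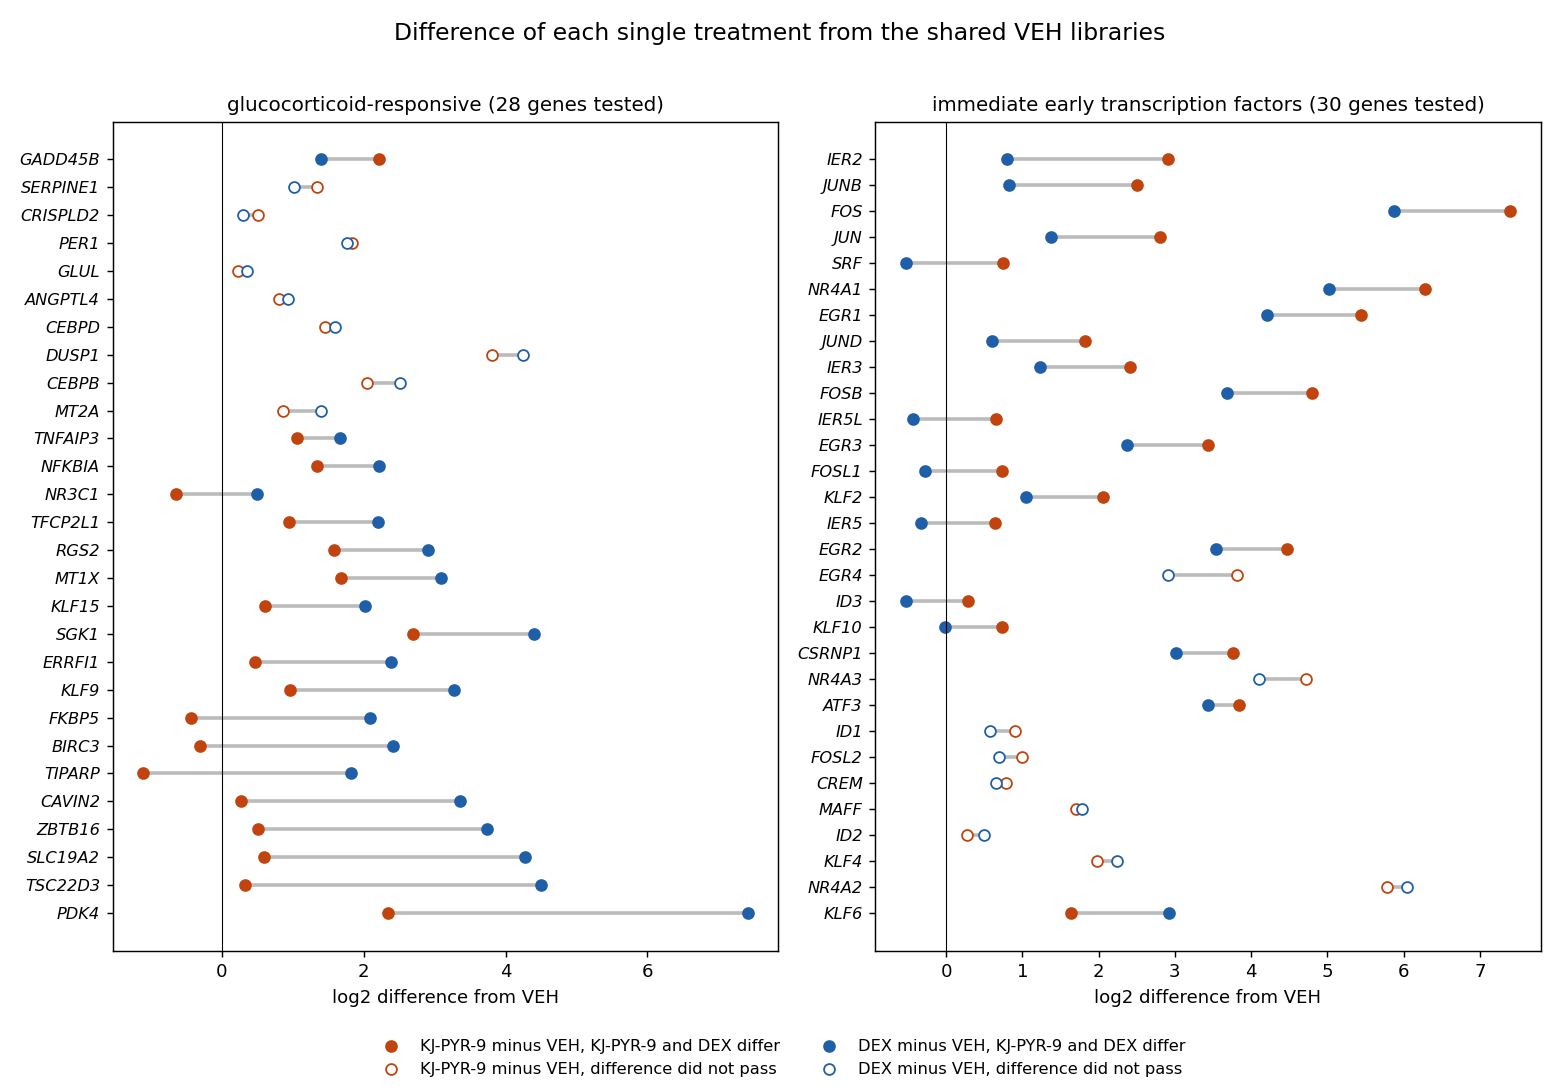
Log2 difference from VEH (horizontal axis) of each tested glucocorticoid-responsive and immediate early gene (rows) in KJ-PYR-9 and in DEX, which share the VEH libraries; filled points mark genes whose KJ-PYR-9 and DEX levels differed at a limma adjusted p under 0.05. Of the glucocorticoid-responsive genes 18 of 28 were called lower in KJ-PYR-9 than in DEX, and of the immediate early genes 20 of 30 were called higher.

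Genes that moved alike in both treatments were named by a rule: called against VEH in the same direction in both, not called between them, and apart by less than 0.5 on the log2 scale. They were ranked by the smaller of their absolute changes from VEH, not by how close the treatments were. The 6 with the largest rises were NR4A2, DUSP1, BTG2, ZFP36, RHOB and CCN2. For these and the 6 with the largest falls, the calls against VEH and the missing call between the treatments were conditions. They therefore add nothing to the values. NR4A2, an orphan nuclear receptor (GRCh38 chromosome 2, 156324437 to 156332721), read 2913, 2701 and 2989.8 in KJ-PYR-9, 3905, 3783 and 2804 in DEX and 74.9, 30.1 and 59.4 in VEH. The KJ-PYR-9 and DEX values overlapped and both lay far above VEH, with changes of 5.78 (SE 0.39, limma adjusted p = 1.48e-05) in KJ-PYR-9 and 6.05 (SE 0.39, limma adjusted p = 5.89e-06) in DEX. Their difference was -0.27 (limma adjusted p = 0.546), with a 95% interval of -1.13 to 0.59 that spans differences of either sign. DUSP1, a phosphatase that switches off MAP kinases and also a member of the glucocorticoid-responsive list (GRCh38 chromosome 5, 172768096 to 172771195), read 5840.0, 4959 and 4822 in KJ-PYR-9, 6992, 7638 and 6478 in DEX and 549.8, 245 and 370.4 in VEH. Its log2 rise over VEH was 3.81 in KJ-PYR-9 (limma adjusted p = 1.48e-05) and 4.25 in DEX (3.89e-06). The treatments did not overlap, and their difference of -0.44 (95% interval -0.997 to 0.12) missed the threshold with limma at an adjusted p of 0.147 and passed after trend removal (-1.04, 0.0173), with quantile scaling (0.0261) and in a fit of the 6 libraries alone (0.0251).

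BTG2, an antiproliferative partner of mRNA deadenylases, read 115, 92.1 and 81.9 in KJ-PYR-9, 85.4, 72.0 and 85.6 in DEX and 8.70, 9.16 and 1.56 in VEH, with overlap between the treatments (0.24, 95% interval -0.68 to 1.15). ZFP36, which marks cytokine mRNAs for decay, read 4698, 3483 and 3712 in KJ-PYR-9, 2822, 3330.4 and 2736 in DEX and 311, 327 and 416 in VEH (0.41, 95% interval -0.011 to 0.84). RHOB, a small GTPase of endosomes and stress, read 2327, 2207 and 2482 in KJ-PYR-9, 1867, 1915 and 1707 in DEX and 350.4, 322 and 395 in VEH (0.35, 95% interval -0.11 to 0.81). For ZFP36 and RHOB the KJ-PYR-9 values lay above the DEX values without overlap, and their limma adjusted p between the treatments was 0.0757 and 0.15, and 0.0488 and 0.0359 with sample quality weights. CCN2, a matrix protein of connective tissue growth, read 12752, 10972 and 11999.9 in KJ-PYR-9, 12465, 10082 and 8833 in DEX and 1973, 1388 and 3760.5 in VEH, with overlap (0.20, 95% interval -0.52 to 0.92). Against VEH these 4 genes changed by 2.45 to 3.93 in KJ-PYR-9 and by 2.25 to 3.69 in DEX, with limma adjusted p of at most 0.00161. After trend removal the differences between the treatments were 0.026 for BTG2, -0.34 for ZFP36, -0.44 for RHOB and -0.11 for CCN2, and none of these 4 passed.

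The 6 with the largest falls held homeobox genes of body patterning and other nuclear factors. HOXC11 read 107, 128 and 83.5 in KJ-PYR-9, 101, 112 and 85.6 in DEX and 292, 229 and 189 in VEH, so both treatments overlapped each other and lay below VEH (-1.14, SE 0.20, limma adjusted p = 0.00265 in KJ-PYR-9 and -1.23 (SE 0.20, limma adjusted p = 0.00347) in DEX). HOXC8 read 142, 147 and 109 in KJ-PYR-9, 192, 218 and 145 in DEX and 319, 391 and 244 in VEH. Its fall in DEX of -0.77 (limma adjusted p = 0.042) had an adjusted p of 0.0561 to 0.131 without DEX 1, 2 or 3 or without VEH 1 or 2, and of 0.0691 after trend removal (-0.73). Its difference between the treatments of -0.47 (0.0906) passed with the replicate block (0.00107) and after trend removal (-0.69, 0.0483). HOXB3 read 98.5, 108 and 101 in KJ-PYR-9, 82.4, 141 and 124 in DEX and 228, 192 and 225 in VEH. Its log2 difference from VEH was -1.06 in KJ-PYR-9 (limma adjusted p = 0.0043) and -0.92 in DEX (0.0181), where the adjusted p was 0.0625, 0.055 and 0.0613 without DEX 1, VEH 1 and VEH 3, and 0.0635 after trend removal (-0.75). The zinc finger gene ZIC4 read 87.2, 80.8 and 64.0 in KJ-PYR-9, 42.7, 61.1 and 77.2 in DEX and 175, 169.8 and 224 in VEH (-1.28 and -1.66 against VEH, limma adjusted p of 0.00222 and 0.000804). ZNF785, a further zinc finger gene, changed by -1.03 in KJ-PYR-9 and -1.25 in DEX, and PHF13, a reader of histone H3 methylation, by -0.75 and -0.98, with limma adjusted p of 0.000841 to 0.00378. Between the treatments the log2 difference was 0.083 for HOXC11 (95% interval -0.37 to 0.53), -0.14 for HOXB3 (-0.61 to 0.33) and 0.23 for PHF13 (-0.091 to 0.56), so each interval spans both signs. After trend removal these were -0.38 for HOXC11, -0.51 for HOXB3 and -0.36 for PHF13, and none of the 3 passed, while HOXC11 passed when the replicate block was added to that removal (limma adjusted p = 0.0364). It was 0.38 for ZIC4 (95% interval -0.095 to 0.86) and 0.21 for ZNF785 (-0.15 to 0.57), and without DEX 3 both passed the threshold, at 0.58 and 0.42. After trend removal that of ZNF785 was -0.50 (limma adjusted p = 0.0318).

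MYC itself, whose pairing with MAX is the target of KJ-PYR-9 (GRCh38 chromosome 8, 127735434 to 127742951), was above VEH in both treatments. It read 10272, 8283 and 11004 in KJ-PYR-9, 19573, 16916 and 18783 in DEX and 1551, 1378 and 2489.8 in VEH, and 4305, 3666 and 4510.3 where both treatments were given. No group overlapped another. The log2 difference of KJ-PYR-9 from DEX was -0.91 (SE 0.21, limma adjusted p = 0.00281), with -1.44 after trend removal, and the changes against VEH were 2.49 in KJ-PYR-9 (limma adjusted p = 6.38e-05) and 3.40 in DEX (4.07e-06). Of 12 tested genes of the MYC network 6 were higher in KJ-PYR-9 than in DEX and 2 lower, with a median of 0.44, and after trend removal 3 and 2 with a median of -0.052. ZBTB17, the MIZ1 partner of MYC at repressed genes, read 872, 874 and 1099 in KJ-PYR-9 and 272, 306 and 374 in DEX (1.58, SE 0.19, limma adjusted p = 0.000204, 0.46 after trend removal). The MAX partner MNT, which opposes MYC, differed by 1.43 (SE 0.24, limma adjusted p = 0.000488), with 0.32 and an adjusted p of 0.0917 after trend removal, and its relative MXD4 by 1.22 (SE 0.15, limma adjusted p = 0.000205) and 0.37. Counts of MYC-dependent processes lay near the 36% higher and 32.8% lower of all genes. Of 35 nucleolar ribosome biogenesis genes 15 were higher and 11 lower (5 and 2 after trend removal, 12 and 13 with TMM, and 11 and 12 with quantile scaling or without KJ-PYR-9 3), and of 28 genes of MYC-dependent metabolism 12 were higher and 11 lower (6 and 6).

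**Figure D4:**
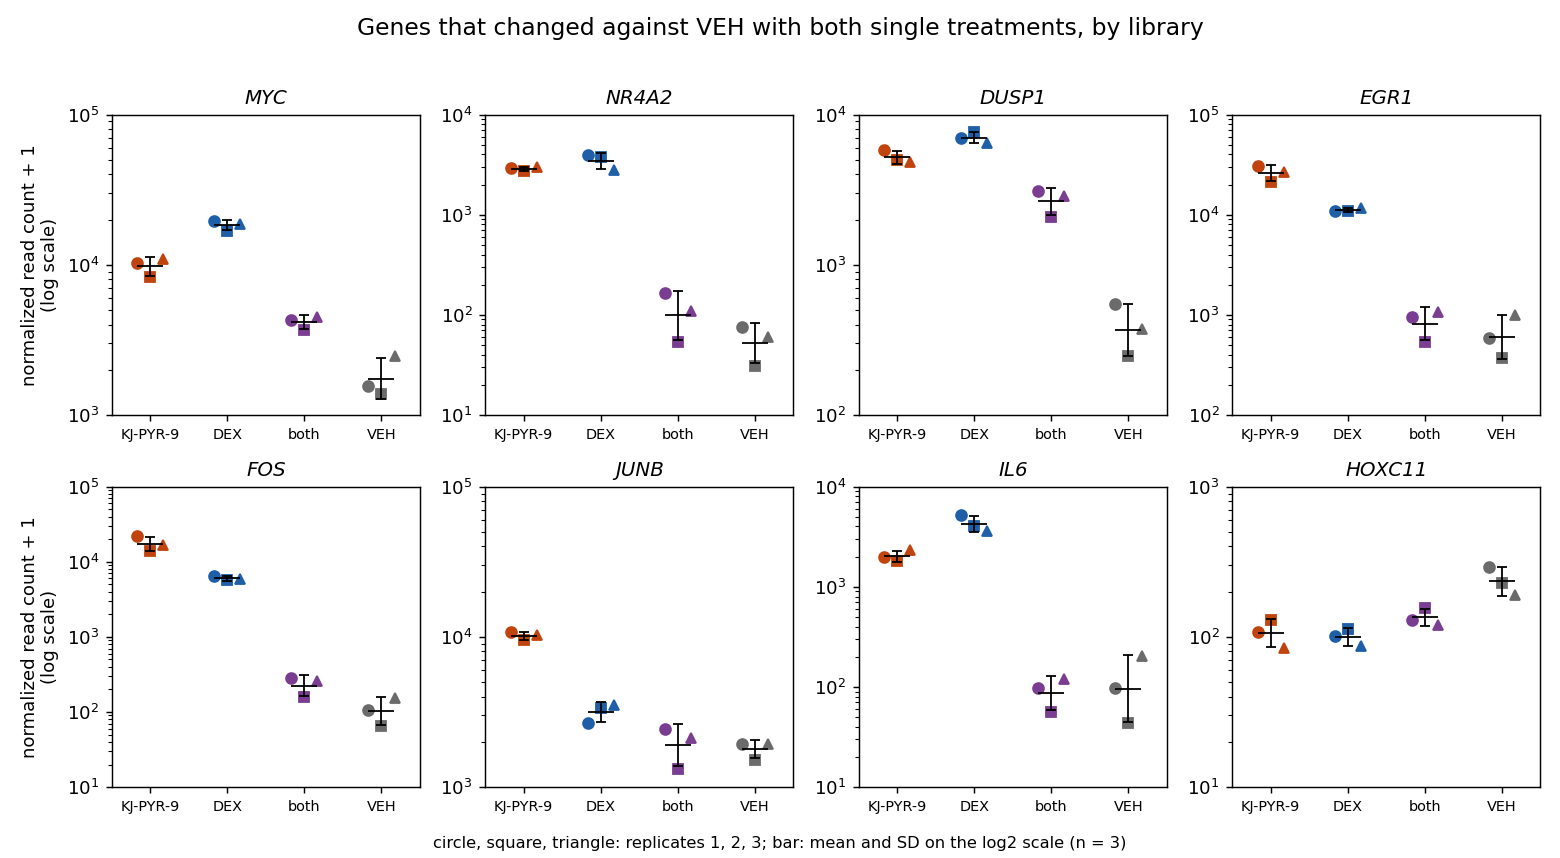
Normalized read count + 1 (vertical axis, log scale) of 8 genes that changed against VEH with both single treatments, by library, with the mean and SD on the log2 scale (n = 3); "both" stands for KJ-PYR-9+DEX. KJ-PYR-9+DEX lies near VEH for NR4A2, EGR1, FOS, JUNB and IL6, and between the single treatments and VEH for MYC and DUSP1.

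In cells that received both treatments FOS, EGR1, NR4A1, NR4A2, DUSP1 and IL6 lay below every library of either treatment alone, while CCN2 overlapped both. FOS read 279, 157 and 257 in KJ-PYR-9+DEX, above every VEH value. EGR1 read 955, 531 and 1073 in KJ-PYR-9+DEX and NR4A1 273, 119.8 and 185, and both overlapped VEH. NR4A2 read 164, 52.99 and 108 and IL6 96.3, 55.3 and 118 there, also overlapping VEH, while DUSP1 read 3097, 2095 and 2879, between VEH and either treatment alone. HOXC11 read 128, 156 and 119.9 and HOXC8 271, 336 and 214 in KJ-PYR-9+DEX. For HOXC11 this lay below VEH, and for HOXC8 it overlapped VEH.

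Feedback genes of MAP kinase signalling and mRNA decay genes were counted next. Of 20 tested genes of the DUSP and Sprouty list 11 were higher than VEH in KJ-PYR-9 (25.4% of all genes were) and 10 in DEX (9.5% of all genes). Between the treatments 5 were higher in KJ-PYR-9 and 4 lower, where 36% and 32.8% of all genes were. After trend removal 3 were higher and 4 lower, where 13.3% and 11.9% of all genes were. DUSP2, a nuclear MAP kinase phosphatase, read 87.8, 70.7 and 56.7 in KJ-PYR-9, 12.2, 14.6 and 20.9 in DEX and 9.46, 18.3 and 18.8 in VEH (2.12, SE 0.29, limma adjusted p = 0.000248, 0.96 after trend removal), so that DEX overlapped VEH. DUSP8, a phosphatase of stress kinases, differed by 1.52 (SE 0.30, limma adjusted p = 0.00118), and by 0.23 with an adjusted p of 0.346 after trend removal. ERRFI1, an inhibitor of the EGF receptor that also belongs to the glucocorticoid-responsive list, read 2619.9, 2550.3 and 2325 in KJ-PYR-9, 11208, 9653 and 7727 in DEX and 1846, 1332 and 2391 in VEH (-1.92, SE 0.25, limma adjusted p = 0.000234). PHLDA1, an early gene of growth factor signals, read 6077, 6639 and 7362 in KJ-PYR-9 and 15430.1, 14324 and 11105 in DEX (-1.02, SE 0.19, limma adjusted p = 0.00089, -0.64 after trend removal, with an adjusted p of 0.0903 when DEX 1 was also left out). Of 19 tested mRNA decay and BTG early genes 14 were higher than VEH in each treatment. Between the treatments 5 were higher in KJ-PYR-9 and 6 lower (0 and 3 after trend removal), beside the same shares of all genes. ARC, a synaptic early gene, differed by 1.75 (SE 0.37, limma adjusted p = 0.00167) and PPP1R15A, which restarts translation after stress, by 1.13 (SE 0.19, limma adjusted p = 0.000488). After trend removal ARC was at 0.40 (limma adjusted p = 0.46) and PPP1R15A at 0.23 (0.232). RGS2, a brake on G protein signals, differed by -1.33 (SE 0.24, limma adjusted p = 0.000781), and by -0.58 with an adjusted p of 0.151 after trend removal, and the antiproliferative BTG3 by -1.33 (SE 0.23, limma adjusted p = 0.000588) and -0.76.

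**Figure D5:**
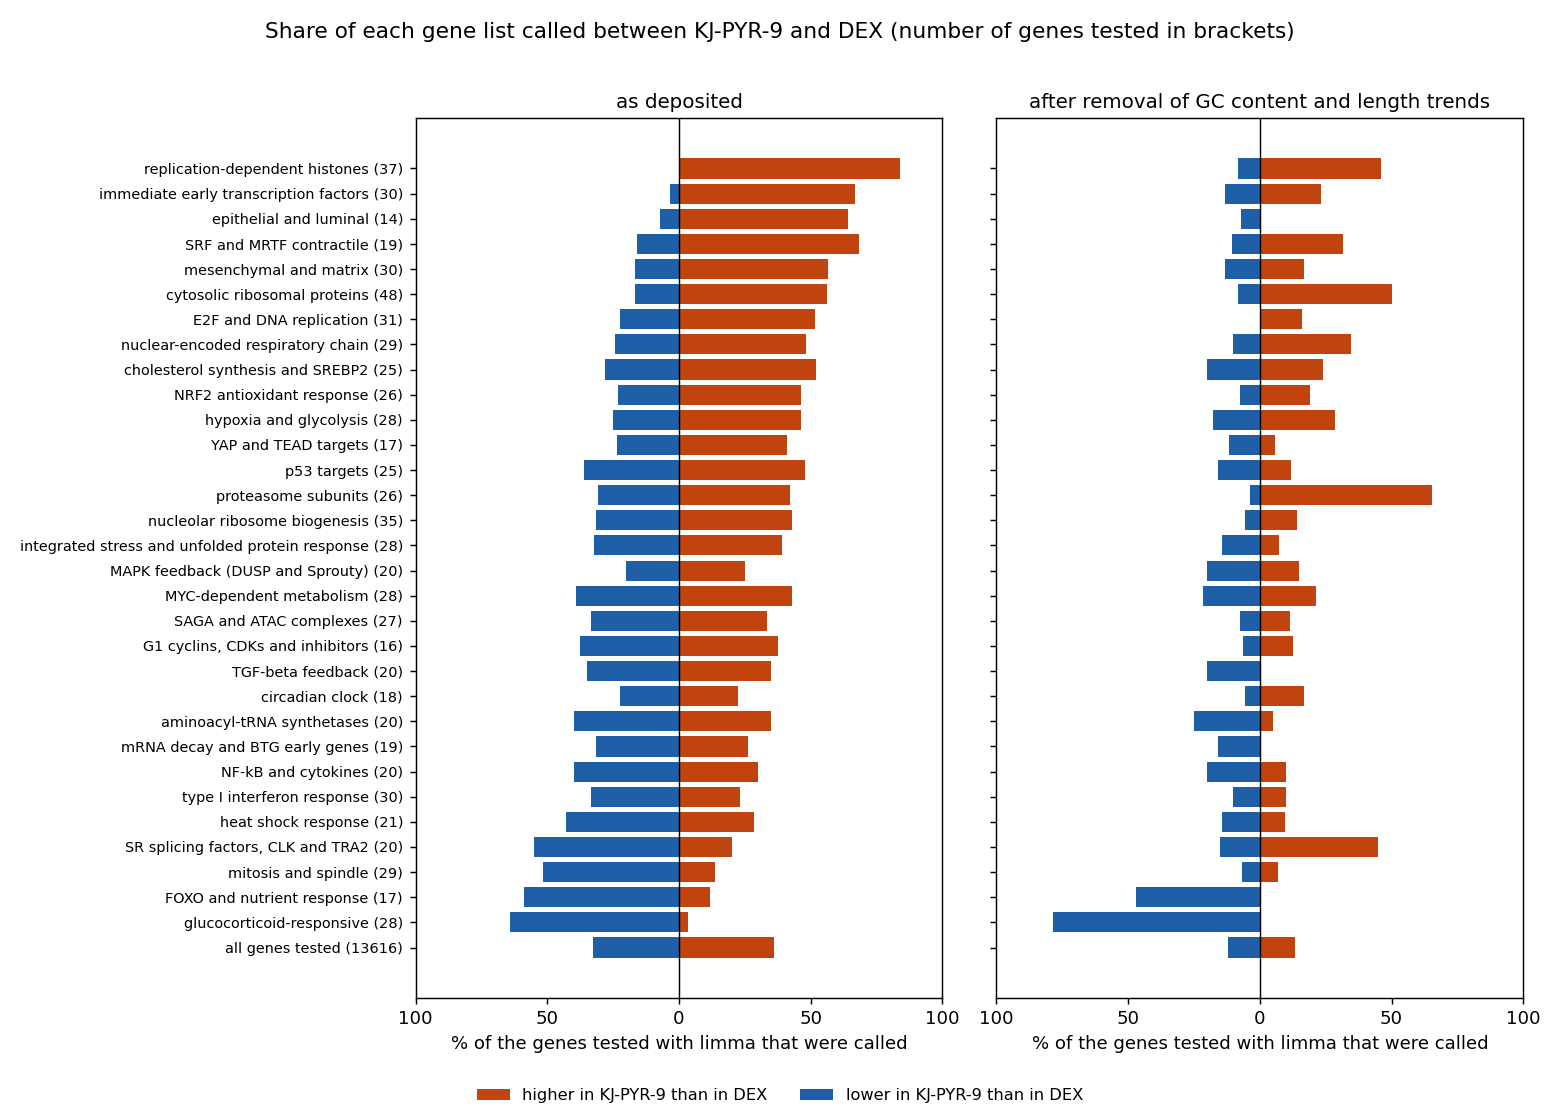
Share of the tested genes of each list (rows, number tested in brackets) that limma called higher (right) or lower (left) in KJ-PYR-9 than in DEX, with values as deposited and with GC content and length trends removed. In both panels the glucocorticoid-responsive genes lie to the lower side, with 18 of 28 as deposited and 22 after the removal, and 31 of 37 histone genes lie to the higher side as deposited, against 17 after it.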

How the data were processed

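RNA depleted of ribosomal RNA was sequenced as read pairs, per the labels' protocols. bcl2fastq, SAMtools, featureCounts, DESeq2 and build GRCh38 stand in the submitters' processing notes. The aligner, strand setting and all versions are not given in the sources used here. Deposited by the authors was a signal (counts per gene divided by a size factor) in 24290 features. Of these, 6462 without a symbol were left out (their share of reads is in the report), and 32 that repeat a symbol were summed into its gene. All values (100%) came out as whole reads within 0.0001. Differences are on the log2(value + 1) scale, which understates those of low genes, from limma 3.58.1 (R 4.3.3) on the 13616 genes averaging 10 or more, in 1 fit of the 12 libraries of the inhibitor experiment, with Benjamini-Hochberg adjustment. On recovered reads, edgeR 4.0.16 and DESeq2 1.42.0 were alternatives, which called 9467 and 9504 genes between KJ-PYR-9 and DEX. The limma fit of KJ-PYR-9 against DEX was tested on simulated counts that held no GC or length trend and no link between libraries of the same number. The trend removal and the replicate block were not tested in this way. GC content and length came from the longest GENCODE transcript of each gene, for 97.6% of tested genes. Libraries with the same replicate number deviated together, with residual correlations of 0.13 to 0.524 in all 18 pairs, so the block was an alternative. Some pairs with different numbers correlated as much. KJ-PYR-9 1 was at 0.235 with KJ-PYR-9+DEX 2 and at 0.184 with KJ-PYR-9+DEX 1. For 10 of the 12 libraries the closest partner in another group shared the number.

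Members and the 37 gene lists were chosen with earlier results of these data known. The rule for genes in the text took MYC, the 12 highest and 12 lowest protein-coding genes averaging 50 or more without overlap, up to 4 called members of each list and 6 alike genes in each direction; of the list members, those the report or observations describe are given, and 1 gene is not reported here. Leaving out replicates, other scalings, filters, pseudocounts and weights were tried, and the alternatives that combine GC removal with the block or without DEX 1 were chosen after seeing the data.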

Additional observations from a re-analysis of the deposited data

Results flagged for a closer look

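Reads in features without a gene symbol, which took no part in the comparisons, held a larger share of some libraries than of any VEH library, where the highest share was 1.861%. The share was 3.098% in KJ-PYR-9 1 and 5.445% in KJ-PYR-9 3. It was 26.04% in DEX 1 and 2.071% in DEX 3.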

How the results depend on the processing

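The count of genes that differed between KJ-PYR-9 and DEX, 9375, was 8135 to 9478 with 1 library left out, 3347 with GC content and length trends removed, 4781 when the replicate block was added to that removal and 1981 when DEX 1 was left out of it. That of KJ-PYR-9 against VEH, 5835, was 3385 to 5426 with 1 library left out and 3129 after trend removal. That of DEX against VEH, 2386, was 848 to 3604 with 1 library left out, 3737 with DESeq2, 5984 with sample quality weights, 5925 with the replicate block, 1253 after trend removal and 682 when DEX 1 was also left out. Alone, the block changed no call of a single gene between these groups other than those given in the report. Of 123 differences of single genes printed, recomputed in 2558 cases, 27 turned their sign, 83 lost and 43 gained the threshold, and of the 2207 cases outside trend removal 5, 22 and 39 did. Between KJ-PYR-9 and DEX the sign turned after trend removal, alone, without DEX 1 and with the block, for RHOB (-0.44, -0.33 and -0.44), ZFP36 (-0.34, -0.28 and -0.34), ZNF785 (-0.50 each), HOXC11 (-0.38, -0.32 and -0.38), PHF13 (-0.36, -0.41 and -0.36) and CXCL8 (0.073, 0.027 and 0.073), and, alone and with the block, for CCN2 (-0.11) and GADD45B (-0.098). It also turned for CCN2 with quantile scaling (-0.24). With 1 library left out the difference of HOXC11 was -0.062 to 0.245, turning without DEX 3 (-0.020) or KJ-PYR-9 2, that of HOXB3 -0.37 to 0.017, turning without DEX 2, and that of TSC22D3 in KJ-PYR-9 against VEH -0.15 to 0.63, turning without VEH 2. Beyond the removal itself the cause was not tested. Depth limits low genes most in DEX 1, with 5.582 M reads.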

Other observations

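Over all genes 68.9% were called between KJ-PYR-9 and DEX, 36% higher and 32.8% lower, and with GC content and length trends removed 13.3% were higher and 11.9% lower. Of 29 tested mitosis and spindle genes 15 were lower in KJ-PYR-9 than in DEX and 4 higher, with a median difference of -0.63 and a median GC content of 43.1%, and after the removal 2 were lower and 2 higher with a median of -0.22. CENPE, a kinesin of the kinetochore, read 379, 341 and 207 in KJ-PYR-9, 2339.8, 1701 and 1123 in DEX and 976, 949.8 and 386 in VEH (-2.46, SE 0.54, limma adjusted p = 0.00229), and -1.01 with an adjusted p of 0.0645 after the removal. CDK1, the kinase that starts mitosis, read 270.3, 345 and 185 in KJ-PYR-9 and 1687, 1454 and 873 in DEX (-2.31, SE 0.52, limma adjusted p = 0.00242, -1.07 after the removal), the spindle checkpoint kinase TTK differed by -2.20 (SE 0.47, limma adjusted p = 0.00183) and -1.37, and the spindle gene ASPM by -1.96 (SE 0.45, limma adjusted p = 0.00286), with -0.72 and an adjusted p of 0.11 after the removal. Of 20 genes of SR splicing factors and their kinases 11 were lower and 4 higher, with a median of -0.51, and after the removal the direction turned, to 9 higher and 3 lower with a median of 0.51. SRSF1, an activator of exon inclusion, read 193, 253 and 140.2 in KJ-PYR-9, 1013, 1229 and 646 in DEX and 836, 908 and 699 in VEH (-2.29, SE 0.34, limma adjusted p = 0.000332, -1.496 after the removal). SRSF2 differed by -1.13 (SE 0.29, limma adjusted p = 0.00566), and CLK4, a kinase of SR proteins, by -1.52 (SE 0.17, limma adjusted p = 0.000186), with -0.20 and an adjusted p of 0.207 after the removal. SRSF9 was on the other side, at 1508, 1734 and 1535 in KJ-PYR-9 and 494, 763 and 721 in DEX (1.29, SE 0.20, limma adjusted p = 0.000363, 1.98 after the removal). When DEX 1 was also left out of the removal, the adjusted p was 0.126 for CDK1, 0.0743 for TTK and 0.0915 for SRSF2.

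Contractile, antioxidant, sterol and proteasome genes stand beside a background of 36% of all genes higher and 32.8% lower. After the removal 13.3% of all genes were higher and 11.9% lower. Of 19 tested targets of SRF and its coactivator MRTF 13 were higher in KJ-PYR-9 and 3 lower (6 and 2 after the removal). ACTB, cytoskeletal actin, differed by 1.49 (SE 0.25, limma adjusted p = 0.000484) and FLNA, an actin crosslinker, by 1.65 (SE 0.29, limma adjusted p = 0.000668), with 0.87 and 0.45 after the removal (ACTB 0.79 with quantile scaling). Of 26 NRF2 antioxidant genes 12 were higher and 6 lower (5 and 2 after the removal), so that 18 were called, close to the 68.9% of all genes. HMOX1, which degrades heme, read 8238, 8788 and 9654 in KJ-PYR-9, 2578, 3407 and 3498 in DEX and 3935, 3748 and 4494 in VEH (1.502, SE 0.14, limma adjusted p = 0.000159, 0.69 after the removal), and the sulfiredoxin SRXN1 differed by 1.90 (SE 0.47, limma adjusted p = 0.00414) and 1.39. Cholesterol synthesis genes went both ways, with 13 of 25 higher and 7 lower (6 and 5 after the removal). MSMO1, a sterol demethylase, read 233, 273 and 228 in KJ-PYR-9 and 1004, 977 and 650.3 in DEX (-1.82, SE 0.21, limma adjusted p = 0.000203, -0.70 after the removal), and the sterol carrier STARD4 differed by -2.02 (SE 0.20, limma adjusted p = 0.000172) and -0.49. MVD, an enzyme of the pathway, read 2343, 2168 and 2645 in KJ-PYR-9 and 564, 725 and 928 in DEX (1.71, SE 0.21, limma adjusted p = 0.000212, 0.54 after the removal), and the demethylase CYP51A1 differed by 1.68 (SE 0.29, limma adjusted p = 0.000575) and 2.43. Of 26 proteasome subunits 11 were higher and 8 lower, and after the removal 17 were higher and 1 lower. When DEX 1 was also left out of the removal, the adjusted p was 0.0889 for FLNA, 0.0756 for SRXN1 and 0.0794 for STARD4.

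The counts of the other lists stand beside a background of 36% of genes higher and 32.8% lower in KJ-PYR-9. Genes of the epithelial state were higher in 9 of 14 and lower in 1 (0 lower without DEX 1, DEX 3, KJ-PYR-9 1 or KJ-PYR-9 2), and mesenchymal and matrix genes higher in 17 of 30 and lower in 5, and after the removal these counts were 0 and 1 and 5 and 4. With quantile scaling 9 mesenchymal and matrix genes were higher and 9 lower. E2F and DNA replication genes were higher in 16 of 31 and lower in 7 (5 and 0 after the removal, and 4 lower without DEX 1 or KJ-PYR-9 3). Respiratory chain genes were higher in 14 of 29 and lower in 7 (10 and 3, and 4 lower without DEX 2, KJ-PYR-9 1 or KJ-PYR-9 3), and hypoxia and glycolysis genes higher in 13 of 28 and lower in 7 (8 and 5). Type I interferon genes were higher in 7 of 30 and lower in 10 (3 and 3, 13 and 11 with the replicate block, 3 and 10 without DEX 2 or KJ-PYR-9 3, and 11 and 8 without DEX 3). Heat shock genes were higher in 6 of 21 and lower in 9 (2 and 3), and p53 targets higher in 12 of 25 and lower in 9 (3 and 4, 7 and 8 without DEX 1, and 8 and 9 without KJ-PYR-9 3). Genes of the integrated stress and unfolded protein responses were higher in 11 of 28 and lower in 9 (2 and 4, 8 and 9 with quantile scaling or without DEX 2, and 7 and 7 without KJ-PYR-9 3), YAP and TEAD targets higher in 7 of 17 and lower in 4 (1 and 2), and TGF-beta feedback genes higher in 7 of 20 and lower in 7 (0 and 4). Aminoacyl-tRNA synthetases were higher in 7 of 20 and lower in 8 (1 and 5), SAGA and ATAC subunits higher in 9 of 27 and lower in 9 (3 and 2), clock genes higher in 4 of 18 and lower in 4 (3 and 1, and 2 lower without DEX 1, DEX 2, KJ-PYR-9 1 or KJ-PYR-9 3), and G1 cyclins, their kinases and inhibitors higher in 6 of 16 and lower in 6 (2 and 1). EGF receptor genes were higher in 2 of 8 and lower in 1 (0 and 1, and 2 and 3 with quantile scaling), and aryl hydrocarbon receptor targets higher in 1 of 6 and lower in 2 (0 and 1, and 0 and 2 without DEX 1, KJ-PYR-9 2 or KJ-PYR-9 3).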
